A study of Homo sapiens with 12 samples.

Results

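The genes described here are those whose RNA differed at least 2-fold from control, in the same direction, in both SIVA transfectants of MDA-MB-231. MDA-MB-231 is a human breast cancer line with a mesenchymal-like expression profile. A gene entered if it had at least 50 counts in 1 of the 3 MDA-MB-231 libraries, and 12951 of the 57187 genes in the count table did. Of these, 48 were at least 2-fold higher than control in both transfectants and 109 were at least 2-fold lower, 157 genes in all. The study compared 3 conditions in each of 4 human cancer lines, the breast lines MDA-MB-231 and HCC1954 and the ovarian lines OVCAR8 (spelled OVAR-8 in the labels) and SKOV3, with 1 RNA-seq library per line and condition. The control cells are called parental and untreated in the labels and are described in the study's text as empty-vector cells, so they are called control here. The SIVA-WT cells carried the wild type SIVA sequence and the SIVA-D160N cells a SIVA sequence with asparagine in place of aspartate at residue 160, each from a vector with a CMV promoter, SIVA, an internal ribosome entry site and GFP. Both were stable transfectants selected with hygromycin. The transfectants of the other lines are described as polyclonal, whereas nothing in the sources used here says how many clones the MDA-MB-231 cells represent.

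Each condition of MDA-MB-231 rests on 1 library, so there is no replicate check and no test within this line. A ratio below is a ratio between libraries, and the intervals given with some ratios are exact binomial 95% intervals of the counts, which cover counting error only. Both ratios of a gene share the control library, so a high or low value in that library moves both the same way. If the control cells carried no vector, both transfectants also differ from them by transfection, hygromycin selection and GFP. Such a difference cannot be told apart from that of SIVA. In bulk RNA, fewer cells that express a gene and less RNA per cell cannot be told apart. The 3 libraries held 45890398 (control), 39248227 (SIVA-WT) and 40801389 (SIVA-D160N) counts, mitochondrial genes took 4.66% to 4.81% of them, and 3 counts correspond to 0.0661 to 0.0756 CPM (counts scaled to a common library size).

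SIVA is a small zinc-binding protein that was found as a partner of the tumour necrosis factor receptor CD27 and is itself induced by p53 and E2F1. Immediate-early genes such as *EGR1* and *FOS* are switched on within minutes by growth factors through ERK kinases, and their products, with the AP-1 factors, drive growth factor and cytokine genes. The integrated stress response works through the factor ATF4, whose translation goes up when amino acids are short or proteins misfold, and which activates genes for amino acid synthesis and transport.

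*SIVA1*, the gene that encodes SIVA (chromosome 14, 104753147 to 104759654 in GRCh38.p14), had 1272 counts in control, 3193 in SIVA-WT and 2807 in SIVA-D160N. These are 28.0, 80.4 and 67.7 CPM, so that the transgene libraries stood 2.87-fold and 2.42-fold above a control that already contained *SIVA1* RNA. The intervals of the log2 ratios were 1.43 to 1.62 and 1.18 to 1.37. Counts per gene do not separate RNA of the vector from RNA of the cells' own gene. The altered codon lies near the end of the 528-base coding sequence. It is shown because it is the only designed difference between the transfectants, in the GENCODE transcript SIVA1-201, coding bases 466 to 495, with codon 160 in capitals, a codon for aspartate.
SIVA1-201: gtggactgcagtGACatgtacgagaaagtg

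The 48 higher genes were 0.371% of the genes tested, and the 109 lower genes were 0.842%. Lower genes thus outnumbered higher ones in both transfectants together, and also in each alone. SIVA-WT had 109 genes at least 2-fold higher and 138 lower, and SIVA-D160N had 152 higher and 451 lower. Over all 12951 genes the median log2 ratio was -0.02 in either transfectant. Most of the 157 genes were not abundant. Of the higher genes 26, and of the lower 56, had fewer than 200 counts in each library, beside 2103 of all 12951 genes. The median count in a gene's highest library was 178 for the higher and 192 for the lower genes, beside 1414 over all genes. The plot of the ratios shows that the lower genes lie mostly below the diagonal, further from control in SIVA-D160N than in SIVA-WT.

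**Figure D1:**
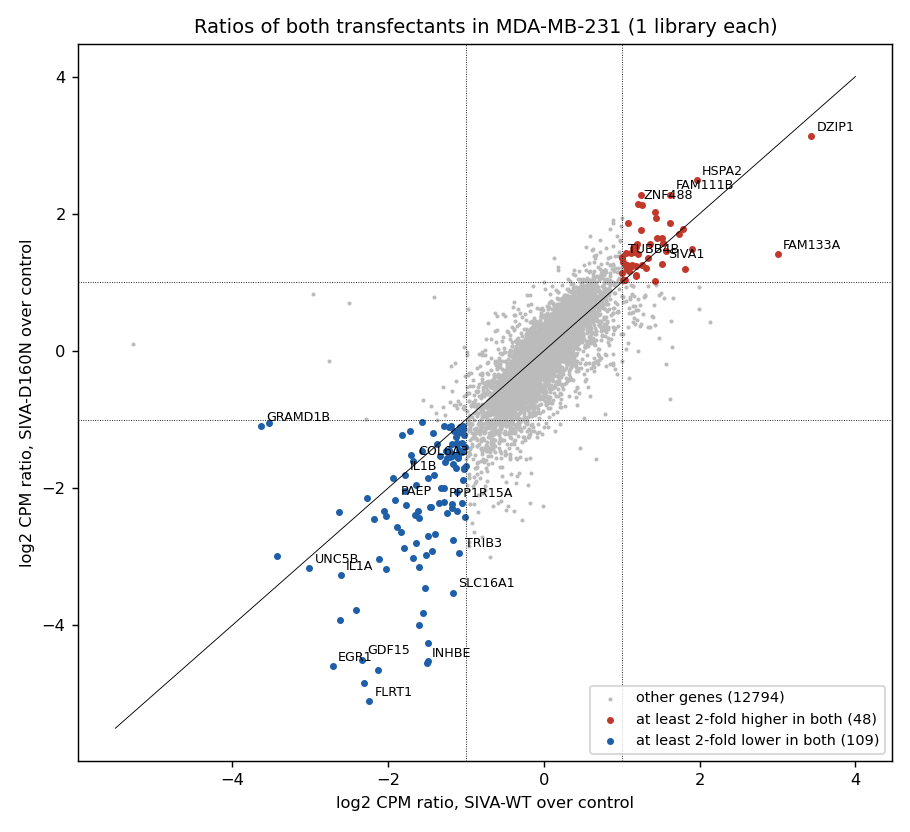
Log2 CPM ratio to control of 12951 genes in MDA-MB-231, SIVA-WT on the x axis and SIVA-D160N on the y axis, 1 library per condition. Dotted lines mark a 2-fold difference and the solid line equal ratios; the 48 genes higher in both are red and the 109 genes lower in both are blue, and *EGR1*, *GDF15*, *FLRT1* and *INHBE* lie far below the solid line.

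Growth factor response genes were prominent among the lower genes. *EGR1*, a zinc finger factor of the immediate-early class, had 14586 counts in control, 1947 in SIVA-WT and 548 in SIVA-D160N. The levels were 321, 49.1 and 13.2 CPM, 6.55-fold and 24.3-fold below control. The interval of the log2 ratio was -2.78 to -2.64 for SIVA-WT and -4.73 to -4.48 for SIVA-D160N. *FOS*, an AP-1 subunit, was at 13.5 CPM in control, 5.27 in SIVA-WT and 2.87 in SIVA-D160N. Its partner *JUNB* followed the same order with 34.1, 13.6 and 8.47 CPM. *EREG*, an epidermal growth factor receptor ligand, was at 47.6, 17.3 and 9.82 CPM. For all 4 genes the control library was highest, which the 2-fold rule requires. The SIVA-D160N library was lowest for all 4, as for 92 of the 109 lower genes. *NAB2*, a corepressor of EGR factors, was lower by a similar amount in both (52.2, 16.0 and 18.3 CPM).

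Over the whole list of AP-1 and ERK output genes, 29 of 30 could be measured. Of these, 5 were at least 2-fold lower in both transfectants, beside 109 of all 12951 genes, and 0 were higher. The 5 were *EGR1*, *EGR2*, *FOS*, *JUNB* and *EREG*. Below control by any amount in both were 25 of the 29, beside 5733 of all 12951 genes, and the list's median log2 ratio was -0.45 in SIVA-WT and -0.75 in SIVA-D160N, beside -0.02 over all genes. *FOSL1*, the AP-1 subunit linked to invasive breast lines, had log2 ratios of -0.64 and -0.72, and the ligand gene *HBEGF* -0.92 and -1.06. Of the feedback inhibitors of the ERK pathway, *DUSP6* had -0.28 and -0.75 and *SPRY4* had -0.58 and -0.95. *CCND1*, which encodes cyclin D1, went the other way with 0.58 and 0.80, as did *SPRY1*, another feedback inhibitor, with 0.60 and 0.87.

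Cytokine genes were another group among the lower genes. *IL1A*, which encodes the inflammatory cytokine interleukin 1 alpha, was at 23.9 CPM in control, 3.88 in SIVA-WT and 2.44 in SIVA-D160N, with 1086, 154 and 101 counts. *IL1B*, which encodes interleukin 1 beta, was at 10.9, 3.12 and 3.06 CPM, so both transfectants had nearly the same level. The chemokine gene *CXCL2* was at 8.08, 2.24 and 1.25 CPM. In each case the control library was at least 3 times the level of either transfectant. *IL6* was weakly expressed in all 3 libraries (84, 20 and 17 counts). *LIF*, a cytokine of the interleukin 6 family, was abundant, with 215 CPM in control, 93.2 in SIVA-WT and 75.4 in SIVA-D160N, and *CXCL8*, a neutrophil attractant, was at 11.1, 5.49 and 2.05 CPM.

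Of 32 cytokines and NF-kB targets listed, 18 could be measured, and 8 were at least 2-fold lower in both transfectants, beside 109 of all 12951 genes. The 8 were *IL1A*, *CXCL2*, *IL1B*, *IL6*, *RELB*, *LIF*, *CXCL3* and *CXCL8*. Below control by any amount in both were 16 of the 18, beside 5733 of all 12951 genes. The median log2 ratio of the 18 was -0.98 in SIVA-WT and -1.20 in SIVA-D160N. *RELB*, an NF-kB subunit, had ratios of -1.34 and -1.53, while *NFKBIA*, the NF-kB inhibitor, had -0.61 and -0.64. *SOD2*, a mitochondrial enzyme that NF-kB induces, had 0.22 and 0.28 and was the 1 measured gene of the list above control in both. The receptor genes *IL20RB* (6.23, 1.97 and 1.57 CPM) and *IL21R* (10.7, 3.50 and 0.627 CPM) were lower as well. *OSCAR*, an immunoglobulin-like receptor that binds collagen, was at 54.4, 17.4 and 7.74 CPM.

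**Figure D2:**
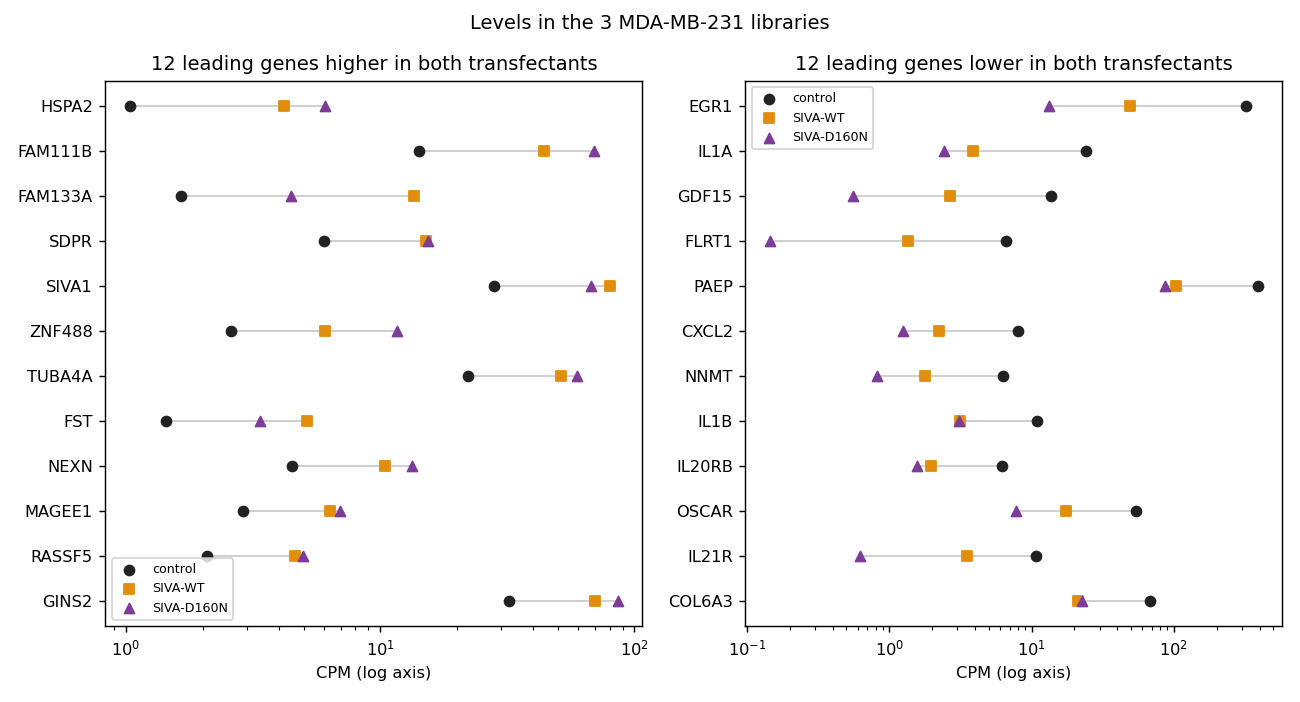
Level in CPM (log axis) of the 12 higher and the 12 lower genes with the largest smaller ratio among genes with at least 200 counts, with 1 point per MDA-MB-231 library. Symbols of clones, loci, non-coding RNA and open reading frames, such as *C1orf110*, were left out. The control point lies left of both transfectants in the first panel and right of both in the second, as the 2-fold rule requires. *EGR1* is at 321 CPM in control and 13.2 in SIVA-D160N.

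Targets of ATF4 separated the transfectants. *TRIB3*, a pseudokinase that holds back ATF4, was at 329 CPM in control, 155 in SIVA-WT and 42.8 in SIVA-D160N. *PPP1R15A*, the phosphatase subunit that ends the integrated stress response, was at 393, 161 and 85.0 CPM. *GDF15*, a stress-induced hormone of the TGF-beta family, was at 13.6, 2.67 and 0.555 CPM, which is 5.11-fold and 24.6-fold below control. *INHBE*, which encodes the activin subunit beta E, was at 43.9, 15.4 and 1.83 CPM. All 4 had an intermediate level in SIVA-WT and the lowest in SIVA-D160N, as did 92 of the 109 lower genes. *FGF21*, a metabolic hormone, had 62, 18 and 1 counts. The log2 ratio of its single count in SIVA-D160N had an interval of -11.15 to -3.29.

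These 5 genes were the ones at least 2-fold lower in both transfectants among 39 measured ATF4 targets of a list of 40. Of all 12951 genes, 109 were. The rest of the list was lower mostly in SIVA-D160N: 27 of the 39 were at least 2-fold below control there and 5 in SIVA-WT, with medians of -1.20 and -0.42. In both transfectants together, 38 of the 39 were below control by any amount, beside 5733 of all 12951 genes. The remaining gene was *ALDH1L2*, a mitochondrial folate enzyme, with 0.01 in SIVA-WT and -1.11 in SIVA-D160N. *ASNS*, which makes asparagine, had log2 ratios of -0.54 in SIVA-WT and -1.82 in SIVA-D160N. *DDIT3*, which encodes the factor CHOP, had -0.65 and -2.27, *CHAC1*, a glutathione-degrading enzyme, -0.17 and -2.22, and *SESN2*, a leucine sensor, -0.89 and -2.64. *ATF4* RNA itself was near control, with -0.14 and -0.21.

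The transfectants can also be compared directly, without the control library. The SIVA-D160N library was below the SIVA-WT library for 38 of the 39 ATF4 targets, and at least 2-fold below for 19, with a median log2 difference of -0.94. Over all genes, 136 of 12951, or 1.05%, were at least 2-fold lower in SIVA-D160N than in SIVA-WT, and 24, or 0.185%, were at least 2-fold higher. For the AP-1 and ERK output list the median difference was -0.32, and for the cytokine list -0.26. The unfolded protein response list, which shares the stress sensors of the endoplasmic reticulum, had a median difference of 0.03. Its 18 genes had medians of -0.19 in SIVA-WT and -0.20 in SIVA-D160N. *ERN1*, a sensor of misfolded protein, was the 1 member among the 18 (50.3, 20.7 and 12.5 CPM), lower in both as were 109 of all 12951 genes. *HSPA5*, the main chaperone of that compartment, had -0.36 and -0.64.

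**Figure D3:**
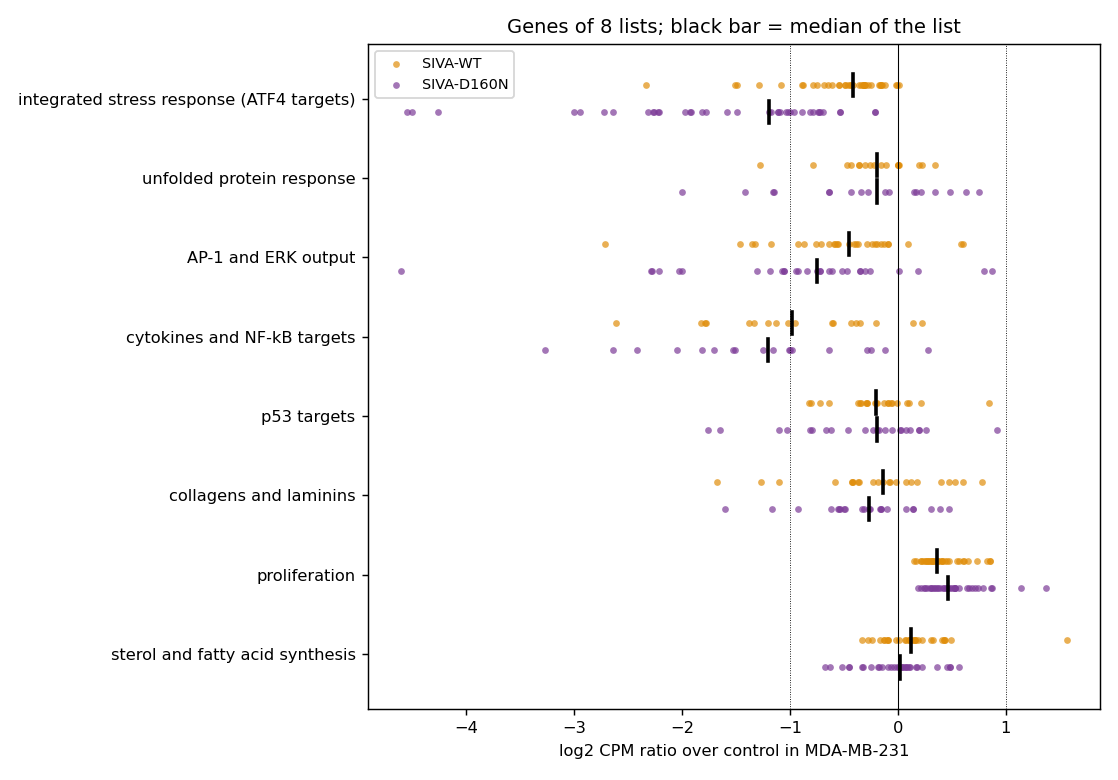
Log2 CPM ratio to control in MDA-MB-231 of each measured gene of 8 lists, 1 point per gene, SIVA-WT and SIVA-D160N in separate rows, with a black bar at the list's median. The ATF4 targets have medians of -0.42 and -1.20, and every gene of the proliferation list lies right of 0.

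Sequence motifs were searched in the promoters of RefSeq (GRCh38.p14, 250 bases before to 50 after the start, the first listed for each gene). Promoters were found for 66 of the lower genes, 35 of the higher genes and 10059 of all genes tested. A listed start need not be the outermost one of its gene. The *IL21R* promoter lies inside that gene, which begins at chr16:27402174. TGATGNAA, the element bound by ATF4 with C/EBP factors, occurred on either strand in 6 of the 66 lower genes (9.09%), in 0 of the 35 higher genes and in 1.70% of all. In the ATF4 target list 9 of 34 promoters held it. Of the 6 lower genes, only *FGF21* belongs to that list. TGANTCA, the AP-1 element, occurred in 7 of 66 (10.6%), 1 of 35 and 4.50% of all. In the AP-1 and ERK output list 1 of 21 promoters held it, and in the ATF4 target list 3 of 34. The interferon-stimulated response element occurred in 1 of 66, 0 of 35 and 2.58% of all. The first 2 motifs both begin with TGA. A match is a description of letters and not evidence of binding. The 6 matches to the ATF4 element are shown because their genes were lower in both transfectants, with the match in capitals and 60 bases of the gene's own strand.
KLHDC7B: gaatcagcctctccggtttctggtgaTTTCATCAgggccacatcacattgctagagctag
S100P: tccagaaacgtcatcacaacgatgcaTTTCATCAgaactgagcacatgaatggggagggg
IL20RB: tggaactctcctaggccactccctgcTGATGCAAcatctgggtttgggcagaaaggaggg
IL21R: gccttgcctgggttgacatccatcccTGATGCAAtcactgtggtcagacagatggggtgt
FGF21: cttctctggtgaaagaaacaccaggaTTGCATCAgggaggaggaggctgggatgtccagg
FUT1: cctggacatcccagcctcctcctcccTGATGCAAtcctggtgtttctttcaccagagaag

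These windows are chr22:50545722-50545781 for *KLHDC7B*, chr4:6693729-6693788 for *S100P*, chr3:136957881-136957940 for *IL20RB*, chr16:27427127-27427186 for *IL21R* and chr19:48755444-48755503 for *FGF21* and *FUT1*. The last pair are neighbours read in opposite directions from a shared promoter, so their match is the same 8 bases seen from either strand (*FGF21* on the plus strand, *FUT1* on the minus strand). *FUT1*, a fucosyltransferase that makes the H blood group antigen, was at 16.5 CPM in control, 7.33 in SIVA-WT and 2.39 in SIVA-D160N. *S100P*, a calcium-binding protein, had 89, 13 and 4 counts, and *KLHDC7B* had 82, 10 and 3. All 6 genes were lowest in SIVA-D160N, as were 92 of the 109 lower genes.

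The AP-1 element stood in the promoters of *IL1A* and *PAEP*, both among the 12 leading lower genes. It is shown in capitals, in chr2:112784494-112784553 on the minus strand and chr9:135561635-135561694 on the plus strand.
IL1A: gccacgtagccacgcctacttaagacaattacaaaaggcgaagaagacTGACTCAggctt
PAEP: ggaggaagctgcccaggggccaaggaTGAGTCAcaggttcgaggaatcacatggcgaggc

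*PAEP* encodes glycodelin, a secreted lipocalin of the reproductive tract, and was among the most abundant of the lower genes, with 17703, 4133 and 3566 counts in control, SIVA-WT and SIVA-D160N (390, 104 and 86.0 CPM). The lipocalin genes beside it on chromosome 9 were lower too, *LCN1* with 124, 27 and 30 counts and *OBP2A* with 107, 26 and 19. These 3 lay within 20 neighbouring tested genes, between 133356550 and 135566955. The same was true of 4 genes on chromosome 4 between 65573440 and 74388749, the chemokine genes *CXCL2*, *CXCL3* and *CXCL8* with *EREG*, and of *FUT1*, *FGF21*, *PLEKHA4* and *PPP1R15A* on chromosome 19 between 48270081 and 48876058. No window of 20 genes held more than 4 lower or 2 higher genes. By chromosome, the share of the 157 genes among those with a RefSeq position ran from 0.455% on chromosome 6 to 1.79% on chromosome 4.

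Of 23 measured collagens and laminins, 2 were at least 2-fold lower in both transfectants, beside 109 of all 12951 genes, and 0 were higher. *COL6A3*, a chain of collagen VI, was at 68.2 CPM in control, 21.3 in SIVA-WT and 22.5 in SIVA-D160N. Its level was similar in both transfectants. The 23 measured collagens and laminins had medians of -0.13 and -0.26. *COL6A2*, another chain of collagen VI, had -1.27 and -0.93. The mesenchymal list had 0 members among 19 measured genes and medians of 0.01 and -0.19. The list of proteases and inhibitors of invasion had 0 among 23, with medians of -0.15 and -0.41. Of all 12951 genes 157 were members, so 0 is near the share of all genes for lists this short.

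Markers of the line's identity were checked beside these results. The 10 mesenchymal-like markers summed to 10683 CPM in control, 9890 in SIVA-WT and 9215 in SIVA-D160N. Of them 0 were members, beside 157 of all 12951 genes. *ESRP1*, a splicing regulator of epithelial cells, was the 1 member among 6 measured epithelial markers, at 6.32, 2.17 and 0.531 CPM. The 10 epithelial markers summed to 86.8, 79.0 and 76.3 CPM in MDA-MB-231, beside 2964 to 3054 CPM in HCC1954. The blood and vessel markers summed to 0.820 to 1.39 CPM. The part of these small differences in the results was not tested.

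The median log2 ratio of the 48 higher genes was 1.23 in SIVA-WT and 1.42 in SIVA-D160N. *FAM111B*, a protease found at replicating DNA, was at 14.3 CPM in control, 44.1 in SIVA-WT and 69.3 in SIVA-D160N. *GINS2*, a subunit of the replicative helicase, was at 32.2, 70.2 and 86.4 CPM, and *ORC1*, which marks replication origins, was at 18.7, 38.9 and 50.3 CPM. *E2F2*, a factor that activates such genes, was at 4.78, 10.1 and 11.5 CPM. In all 4 the control library was lowest, which the 2-fold rule requires. The SIVA-D160N library was highest in all 4, as in 34 of the 48 higher genes. The proliferation list, none of whose genes is a member, showed the same direction at a smaller size. All 35 of its genes were above control in both transfectants, with medians of 0.36 and 0.46, beside 5127 of all 12951 genes. Its highest were *CCNE2*, a cyclin of replication entry (0.85 and 1.37), and *MCM4*, a helicase subunit (0.86 and 1.14), while mitotic genes such as *CDK1* (0.29 and 0.27) were closer to control.

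*TUBB4B*, a beta tubulin and the most abundant of the higher genes, had 9242, 16262 and 21496 counts and lay just inside the 2-fold limit, with log2 ratios of 1.01 and 1.35. *TUBA4A*, an alpha tubulin, was at 22.2, 51.4 and 59.4 CPM. Tubulin genes are similar in sequence, and how reads shared between such genes were counted is not given in the sources used here. *HSPA2*, a heat shock protein of the HSP70 family, was at 1.04, 4.18 and 6.05 CPM, the largest smaller ratio among the higher genes with at least 200 counts. *DZIP1*, which serves primary cilia, had the largest over all 48, with 4, 57 and 48 counts. *WNT10B*, which encodes a WNT ligand, had 17, 56 and 58 counts.

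Other higher genes included secreted regulators and receptors. *FST*, which encodes the activin inhibitor follistatin, was at 1.43 CPM in control, 5.14 in SIVA-WT and 3.35 in SIVA-D160N, while *INHBE*, an activin subunit, was lower as given above. *EDN1*, the vasoconstrictor endothelin, had 255, 469 and 538 counts. *FGFR3*, a fibroblast growth factor receptor, was at 0.859, 2.12 and 3.04 CPM. *SDPR*, a caveola protein now called CAVIN2, was at 6.01, 15.2 and 15.5 CPM. *NEXN*, an actin-binding protein, was at 4.52, 10.4 and 13.3 CPM. *CA12*, a carbonic anhydrase, was the 1 member among 25 measured genes of the hypoxia and glycolysis list (1.76, 3.68 and 3.67 CPM). Of all 12951 genes, 48 were higher in both.

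Between the transfectants, the members spread more among the lower genes. The 2-fold rule used both ratios, so these differences are not independent of how the members were chosen. Over all genes the log2 ratios also spread more in SIVA-D160N (SD 0.50) than in SIVA-WT (SD 0.36). Of the 109 lower genes, 92 were lower in SIVA-D160N than in SIVA-WT, beside 6505 of all 12951 genes. Of the 92, 31 were at least 2-fold lower, beside 1.05% of all genes. The median log2 difference was -0.43. Among those with at least 100 counts in control, the largest differences were those of *BEST1*, *INHBE* and *FLRT1*. *BEST1*, a chloride channel of the retina, had 100, 30 and 2 counts, and the log2 ratio of the last to control had a counting interval of -8.58 to -3.62. *INHBE* had a difference of -3.04, and *FLRT1*, an adhesion protein, had -2.86 (301, 54 and 6 counts). *SLC16A1*, the lactate transporter MCT1, was at 64.1, 28.6 and 5.52 CPM. Of the 48 higher genes, 34 were higher in SIVA-D160N than in SIVA-WT, beside 6446 of all 12951 genes. Of the 34, 1 gene, *FAM124A*, was at least 2-fold higher, beside 0.185% of all genes. *FAM133A* was the reverse, with 75 counts in control, 539 in SIVA-WT and 185 in SIVA-D160N, a difference of -1.59.

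The lists of apoptosis regulators, SIVA partners, p53 targets, Hippo targets and NRF2 targets held no members, beside 157 of all 12951 genes. For lists this short, 0 is near the share of all genes. *SIVA1*, described above as induced by p53, is a member but not on the p53 list. The apoptosis regulators had medians of -0.02 and -0.01 over 22 genes, the SIVA partners -0.05 and -0.10 over 8, the p53 targets -0.20 and -0.19 over 23, the Hippo targets -0.09 and -0.25 over 14, and the NRF2 targets -0.26 and -0.31 over 17. Among p53 targets, *CDKN1A*, a cell cycle inhibitor, had -0.82 and -1.03, and *GADD45A*, a stress sensor that ATF4 also induces, had -0.80 and -1.76. Interferon response genes had medians of 0.03 and -0.09 over 26, with *ISG20*, an exonuclease, as the 1 member (908, 385 and 223 counts). It was lower in both, as were 109 of all 12951 genes. The antigen presentation list had -0.01 and -0.20 over 13 genes, and the sterol and fatty acid list 0.12 and 0.02 over 32.

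The same ratios were then taken in the other lines, each against its own control. A member counted as measured where it also had at least 50 counts in a library of that line. For the 48 higher genes that left 30 in HCC1954, 42 in OVCAR8 and 34 in SKOV3, and for the 109 lower genes 55, 53 and 46. *SIVA1* was the 1 higher gene that was at least 2-fold higher in both transfectants of each other line. It was at 66.1, 177 and 161 CPM in OVCAR8 and at 52.4, 106 and 111 CPM in SKOV3. The HCC1954 control had 0 *SIVA1* counts, so its transfectants, at 37.9 and 26.4 CPM, were at least 530-fold and 369-fold above the level of 3 counts in that library. No other higher gene passed the 2-fold rule in either direction in any of the 3 lines, except that *FGFR3* was lower in HCC1954 and *NOV*, a secreted matricellular protein, was lower in SKOV3.

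Among all genes measured in MDA-MB-231 and in the other line, 0.562% were at least 2-fold higher in both transfectants of HCC1954, 0.201% in OVCAR8 and 0.499% in SKOV3. The shares of the higher genes were 3.33%, 2.38% and 2.94%, each of them *SIVA1* alone. At least 2-fold lower in both were 0.119% of all genes in HCC1954, 0.00836% in OVCAR8 and 1.06% in SKOV3. Of the lower genes 0 of 55 and 0 of 53 were lower in HCC1954 and OVCAR8, and 6 of 46 were lower in SKOV3. Those 6 were *EGR1*, *IL1A*, *OSCAR*, *FOS*, *PPP1R15A* and *EGR2*.

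**Figure D4:**
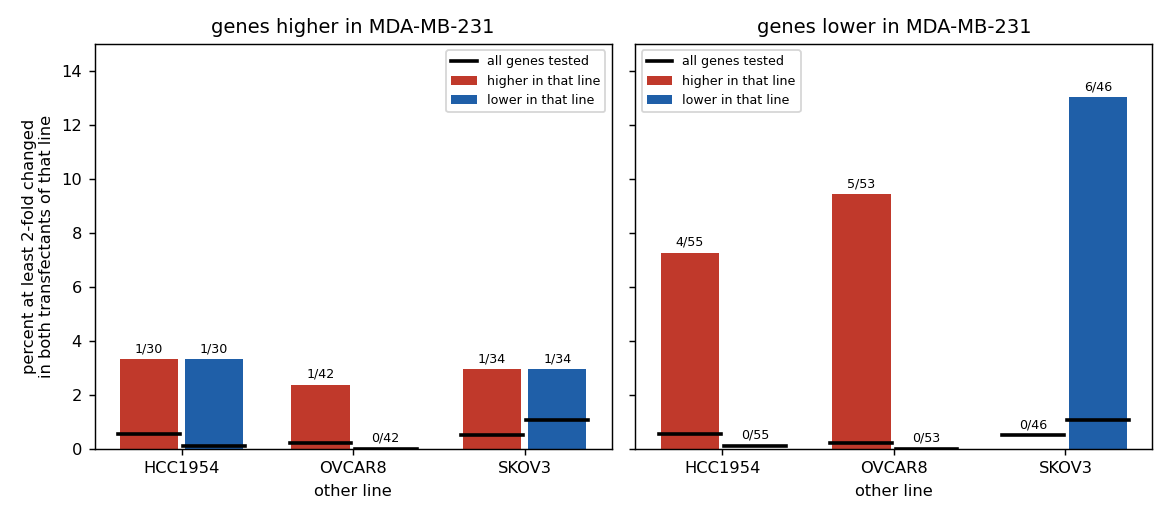
Percent of the genes higher (first panel) and lower (second panel) in MDA-MB-231 that were at least 2-fold changed in both transfectants of each other line, red for higher and blue for lower there, with counts above the bars and black lines for all genes tested. Of the lower genes, 6 of 46 were lower in SKOV3 and 5 of 53 were higher in OVCAR8.

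The immediate-early genes show how the lines differed. *EGR1* was at 752 CPM in the SKOV3 control, 209 in SIVA-WT and 144 in SIVA-D160N. In OVCAR8 it was at 14.9, 13.7 and 18.7 CPM, and in HCC1954 at 74.5, 186 and 74.6 CPM. *FOS* was at 136, 18.2 and 10.9 CPM in SKOV3, and at 107, 260 and 47.4 CPM in HCC1954. So both genes were below control in each transfectant of SKOV3. In HCC1954, *EGR1* was above control in SIVA-WT and at the control level in SIVA-D160N, and *FOS* was above control in SIVA-WT and below it in SIVA-D160N. The list of AP-1 and ERK output genes had medians of -0.72 and -1.36 in SKOV3, with 10 of 28 genes lower in both, 0.01 and 0.10 in OVCAR8, and 0.24 and 0.06 in HCC1954. *PPP1R15A* was at 73.5, 28.3 and 30.3 CPM in SKOV3, 108, 94.1 and 104 CPM in OVCAR8, and 72.1, 76.2 and 109 CPM in HCC1954.

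Some of the lower genes went the opposite way elsewhere. Of the 53 measured in OVCAR8, 5 were at least 2-fold higher in both transfectants: *IL1A*, *IL1B*, *COL6A3* and the loci AC112721.2 and AC112721.1. *IL1B* was at 5.44 CPM in the OVCAR8 control, 38.7 in SIVA-WT and 32.3 in SIVA-D160N, and *IL1A* at 2.05, 8.29 and 9.55. In SKOV3, *IL1A* was at 3.38, 0.715 and 0.416 CPM. *IL1A* was thus lower in both transfectants of MDA-MB-231 and SKOV3 and higher in both of OVCAR8. Of the 55 measured in HCC1954, 4 were at least 2-fold higher in both, among them *IL6*, *KIAA1549L* and Metazoa_SRP, an entry for a repeated small RNA whose reads cannot be assigned with certainty. *IL6* was at 0.286, 1.59 and 3.15 CPM in HCC1954.

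**Figure D5:**
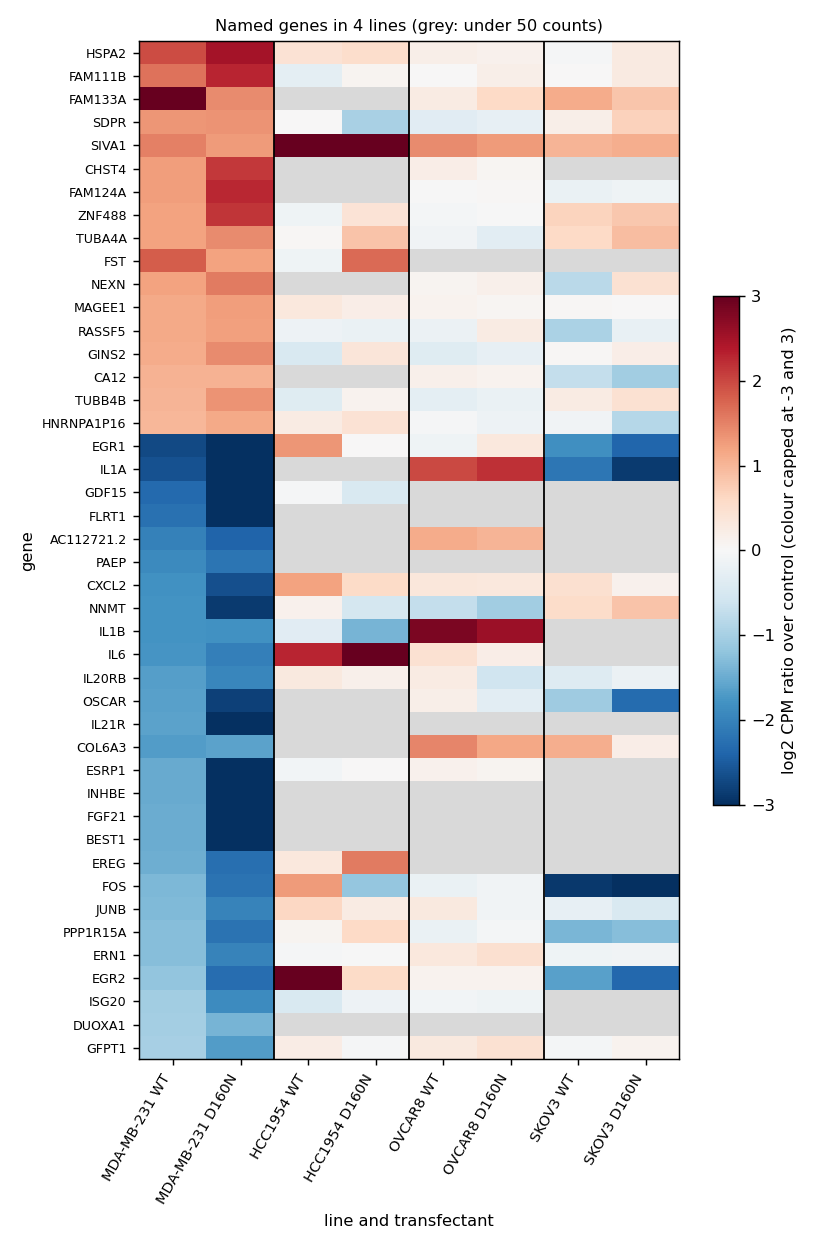
Log2 CPM ratio to control of named genes (rows) in both transfectants of 4 lines (columns), with the colour capped at -3 and 3 and grey where the gene had fewer than 50 counts in that line. *SIVA1* is red in all 8 columns; *IL1A* is blue in MDA-MB-231 and SKOV3 and red in OVCAR8.

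By sign alone, 28 of the 46 lower genes measured in SKOV3 (60.9%) were below control in both transfectants, beside 37.1% of all genes. In OVCAR8 30 of 53 (56.6%) were above control in both, beside 38.1% of all, and in HCC1954 24 of 55 (43.6%), beside 31.8% of all. The higher genes were nearer the background: 10 of 30 (33.3%) were above control in both transfectants of HCC1954, 16 of 42 (38.1%) in OVCAR8 and 12 of 34 (35.3%) in SKOV3, beside 31.8%, 38.1% and 45.8% of all genes. ATF4 targets were below control in both for 27 of 34 in SKOV3, 24 of 36 in OVCAR8 and 15 of 38 in HCC1954, beside 37.1%, 41.5% and 34.7% of all genes. Their SIVA-D160N medians were -0.35, -0.21 and -0.29, beside -1.20 in MDA-MB-231. The proliferation list had medians of -0.09 and 0.23 in HCC1954, -0.10 and 0.00 in OVCAR8, and 0.10 and 0.21 in SKOV3.

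A test with the line as replicate was possible only without MDA-MB-231. In edgeR's quasi-likelihood model of the 9 libraries of HCC1954, OVCAR8 and SKOV3, the mean of both transfectants was set against control, with 3 lines per condition. A call needed an FDR (Benjamini-Hochberg adjusted p) under 0.05 and a log2 fold change of 1.5 or more in either direction. Of 18601 genes 0 were called (0%), and 1264 (6.8%) had an unadjusted p under 0.05. DESeq2 called 8 genes and limma-voom 1 at the same thresholds, none of them a member. Of the 157 members 130 entered this fit (47 higher and 83 lower), 0 were called, and 8 had an unadjusted p under 0.05 (6.15%), which is close to the share of all genes. Of those 8, 5 had the sign they had in MDA-MB-231, namely *SIVA1*, *FAM133A*, *STC1*, *TRIB3* and the locus RP5-965G21.4, and 3 had the opposite sign. The median log2 fold change was 0.02 for the higher and 0.00 for the lower members, beside -0.01 for all genes.

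*SIVA1* had a log2 fold change of 2.02 (SE 0.807) in that fit, with an adjusted p of 0.723 in edgeR's test. Without HCC1954, whose control had no *SIVA1* counts, it was 1.19. *STC1*, a secreted glycoprotein hormone that was at 109, 44.7 and 51.2 CPM in MDA-MB-231, had -0.80 (SE 0.228, edgeR adjusted p = 0.634), and *TRIB3* had -0.34 (SE 0.107, edgeR adjusted p = 0.65). *FAM133A* had 0.95 (SE 0.277, edgeR adjusted p = 0.65). *COL6A3* and *CXCL2*, lower in MDA-MB-231, had 1.14 (SE 0.373) and 0.51 (SE 0.178), with edgeR adjusted p of 0.662 and 0.685. None of these values passed the threshold.

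The 2-fold limit divides genes of nearly equal ratio. Just inside it on the higher side were *HNRNPA1P16*, a pseudogene with 36, 65 and 75 counts, and *TUBB4B*, with smaller log2 ratios of 1.00 and 1.01. Just outside were *KITLG*, the ligand of the receptor KIT, and *HSPA1B*, an inducible HSP70 gene, both with a smaller ratio just under the limit. On the lower side *GFPT1*, the first enzyme of hexosamine synthesis, and *DUOXA1* were just inside, and *CXCL1* and *IFFO1* just outside. *CXCL1* had 57, 18 and 25 counts, so its place on either side of the limit lies within counting error.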

How the data were processed

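RNA of 12 libraries (Trizol extraction, TruSeq Stranded mRNA, paired-end) was processed by the authors with FastQC, STAR 2.5.3a, GRCh38 and edgeR, per the labels. The annotation release and the strand setting of the counting are not given in the sources used here. The authors deposited raw counts for 57187 genes and a signal table, CPM of adjusted library sizes for 34525 genes, used only as an alternative. The 12 totals ran from 35791455 to 45890398 counts, and 0 pairs of libraries were identical. Ratios were taken here on log2 CPM with TMM sizes over all libraries and a prior count of 2 (edgeR 4.0.16, R 4.3.3). Floors and intervals cover counting error only.

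No test was made within MDA-MB-231. The other 3 lines were fitted with edgeR's quasi-likelihood test (line and condition, Benjamini-Hochberg adjustment over all genes passing filterByExpr). The SE is the fold change divided by the square root of F. The pairing comes from the shared cell line: the 9 same-line pairs of libraries correlated at 0.935 to 0.975 in their deviations from the condition means. Nothing states that libraries were independent cultures, so p-values measure the spread between these lines. That spread pools the mean response with the difference between both transfectants, which share a control in each line. Alternatives used DESeq2 1.42.0 and limma 3.58.1, other scalings, priors, minimums and folds, and each line left out. The fit was tested on simulated data.

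The members and lists were chosen with earlier results of these data known. Named genes were *SIVA1*, the 12 genes per direction with at least 200 counts and the largest smaller ratio, members shared with or opposite in other lines, members with the largest difference between transfectants, list members and those at the 2-fold limit. Symbols of clones, loci, non-coding RNA and open reading frames could not enter the 12, which left out *C1orf110*. Other members and list genes were named after their values were seen. RefSeq positions (GRCh38.p14) matched 12467 of 12951 genes and 141 of 157 members. Values of 1 gene are not reported here.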

Additional observations from a re-analysis of the deposited data

Results flagged for a closer look

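Across the 4 lines, 36 values were checked for a line far from the others, and 7 were flagged. A flag needed a gap to the nearest line above Dixon's 95% critical value for 4 samples. The checks are not independent, as both ratios of a line share its control and the lists were chosen with earlier results known. So the 7 flags cannot be set against a rate given by chance. The *SIVA1* log2 ratio in HCC1954 stood apart in SIVA-WT (9.58) and in SIVA-D160N (9.06), where the control had 0 counts, so that both values depend on the prior count. In MDA-MB-231 the SIVA-D160N median of the ATF4 target list, -1.20, stood apart from the other lines, which lay between -0.35 and -0.21. The other 4 lay in other lines: the sterol and fatty acid list in SIVA-WT of HCC1954 (-0.18), the mesenchymal list in SIVA-WT and SIVA-D160N of HCC1954 (0.67 and 0.74), and the hypoxia and glycolysis list in SIVA-WT of SKOV3 (0.16).

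*CXCL2* had a log2 ratio of -1.83 in SIVA-WT of MDA-MB-231 and was also below control in SIVA-D160N, while all 6 ratios of the other lines were above 0. It was the 1 of 22 named members measured in all other lines with that pattern, and the difference between lines was not tested.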

How the results depend on the processing

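The numbers of genes higher and lower in both MDA-MB-231 transfectants followed the limits set. They were 149 and 239 with a minimum of 10 counts, 22 and 53 with 200, 306 and 445 with no minimum beyond 1 count, 314 and 477 at a fold of 1.5, and 6 and 34 at a fold of 3. Other scalings, prior counts and the deposited CPM gave 43 to 57 higher and 100 to 115 lower genes, and lower genes stayed more numerous under every one of these settings. Thinning all libraries to the lowest total kept 39 of the 48 and 91 of the 109. Another scaling shifted all ratios by at most 0.04 (log2), and 1 ratio of a named gene, that of *TUBB4B* in SIVA-D160N, moved beyond its counting interval, to 1.39 under total counts. In the other 3 lines the number of genes past the thresholds was 0 with edgeR, 8 with DESeq2, 1 with limma-voom and 35 with edgeR on all genes with at least 1 count, and 0 of them were members each time. Without the replicate block for the line the count was again 0, and 3 genes had an unadjusted p under 0.05 in place of 1264. Leaving out each line in turn gave 0 to 0 genes, each time with edgeR, and 678 to 2727 at an unadjusted p under 0.05. RP5-965G21.4 could not be fitted without SKOV3. With 1 library per condition, the spread between cultures of MDA-MB-231 is unknown.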
